A study of Mus musculus with 12 samples.

Results

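A set of 9 genes that T cells switch on after T cell receptor triggering was examined in RNA sequencing libraries of Th0, Th17, and iTreg cells. The genes were taken by symbol and are Egr1, Egr2, Egr3, Nr4a1, Nr4a2, Nr4a3, Nab2, Cd69, and Cd5. All 9 were among the 11077 genes listed in the deposited Th17 versus Th0 table and the 11056 genes listed in the iTreg versus Th0 table. The study asked how polarization toward Th17 or iTreg cells changes T helper cells in comparison to activation alone, and each table holds 4 polarized and 4 Th0 libraries from separate cultures. The same 4 Th0 libraries stand in both tables, so both comparisons share their controls, and Th17 and iTreg cells are set side by side here without a test. No library of unstimulated cells was analysed here, so that these genes answer to the receptor is background and not a result.

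In all groups, naive CD4+ T cells from the spleens of C57BL/6 mice aged 8 to 10 weeks were stimulated with plate-bound anti-CD3 at 1 μg/ml and anti-CD28 at 1 μg/ml. Th0 cells received no polarizing cytokine. Th17 cells received IL6 at 30 ng/ml and TGFβ1 at 5 ng/ml together with neutralizing antibodies to IL4 and IFNγ, each at 10 μg/ml. For iTreg cells IL2 at 10 ng/ml was combined with TGFβ1, given as 10 ng/ml in the sample labels and as 20 ng/ml in the study's methods. RNA was collected after 72 h, well past the first hours in which such genes respond to a stimulus, and Th0 cells differed from Th17 cells in the neutralizing antibodies as well as in the cytokines. Each library is a bulk culture that may hold cells which did not polarize.

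T cell receptor signals reach the nucleus through calcium with NFAT, through the ERK kinases, and through NF-κB, and genes of the EGR and NR4A families are among the first to be transcribed. EGR1, EGR2, and EGR3 are zinc finger transcription factors, and NAB2 is a corepressor that binds to them and limits their activity. NR4A1 (Nur77), NR4A2 (Nurr1), and NR4A3 (Nor1) are nuclear receptors without a known endogenous ligand whose activity follows their amount. CD69 is an early activation antigen that keeps the egress receptor S1PR1 off the cell surface, and CD5 is an inhibitory receptor whose surface level is set by the strength of receptor signalling. EGR2, EGR3, and the NR4A factors are also known for roles in T cell anergy and tolerance.

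The sequence in front of the NR4A genes and of Egr2 is shown because it holds or lacks matches to the motifs of EGR factors and of serum response factor. RefSeq start sites on GRCm38.p6 were matched for 6 of the 9 genes, with the other three not in the table used here, and the 250 bases before each start were searched on both strands. The motifs searched were the CArG box of serum response factor by its name alone, the EGR site GCGNGGGCG, the cyclic AMP response element TGACGTCA, the NR4A monomer site (NBRE) AAAGGTCA, the AP-1 site TGANTCA, and the NFAT core GGAAA. Matches of different motifs were counted separately and may overlap. Egr2 has several start sites, of which 1 window is shown. This Egr2 start and the Nr4a1 start lie inside the annotated genes, which begin at 67535475 and 101254269. The window before the most upstream Egr2 start, 67535249 to 67535498, is not shown and held no match to any motif. The windows run 5′ to 3′ toward the start site, and capitals mark a CArG box in Egr2 and EGR sites in Nr4a1 and Nr4a2.
Egr2, chr10:67537619-67537868, plus strand: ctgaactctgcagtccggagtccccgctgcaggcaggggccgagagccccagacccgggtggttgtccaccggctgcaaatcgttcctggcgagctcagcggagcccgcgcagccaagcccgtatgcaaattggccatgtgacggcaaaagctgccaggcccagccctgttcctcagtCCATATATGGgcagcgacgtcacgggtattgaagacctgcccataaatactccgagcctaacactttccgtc
Nr4a1, chr15:101266596-101266845, plus strand: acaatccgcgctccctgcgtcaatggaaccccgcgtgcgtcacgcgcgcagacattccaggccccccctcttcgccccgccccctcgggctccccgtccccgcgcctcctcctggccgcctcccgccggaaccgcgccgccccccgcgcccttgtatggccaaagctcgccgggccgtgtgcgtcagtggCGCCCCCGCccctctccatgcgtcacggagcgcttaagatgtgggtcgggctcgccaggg
Nr4a2, chr2:57124004-57124253, minus strand: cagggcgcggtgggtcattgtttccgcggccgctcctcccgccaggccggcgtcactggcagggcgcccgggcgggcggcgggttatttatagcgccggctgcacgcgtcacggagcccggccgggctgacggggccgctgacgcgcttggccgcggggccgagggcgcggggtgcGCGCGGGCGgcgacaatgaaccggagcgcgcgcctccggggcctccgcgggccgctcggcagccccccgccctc
Nr4a3, chr4:48045055-48045304, plus strand: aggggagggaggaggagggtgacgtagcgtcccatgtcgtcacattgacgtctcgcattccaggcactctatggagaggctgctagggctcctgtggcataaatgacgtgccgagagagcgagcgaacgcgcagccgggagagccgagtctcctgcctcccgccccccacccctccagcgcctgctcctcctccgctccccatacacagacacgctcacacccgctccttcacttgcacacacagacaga
The CArG box of Egr2 began 72 bases before the start, and the EGR sites began 60 bases before the start of Nr4a1, where it reads on the opposite strand, and 74 bases before that of Nr4a2. Nr4a3 held neither. Over 32851 windows of the same length, 1.47% held a CArG box and 4.7% an EGR site. The NFAT core stood in the windows shown of Egr2 and Nr4a2 and in 55.6% of all windows. The cyclic AMP response element (1.55% of all windows), the NBRE (1.34%), and the AP-1 site (6.75%) matched in no window of the 6 genes. A match is a description of letters and not a bound site, and a window without a match says nothing about the factor.

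The tables give FPKM, which are fragments scaled to transcript length and to library size, and can be compared between genes because they are per length. Total counts are not in the tables, but low FPKM values lie on steps of whole reads, which put the depth of the libraries within 0.843 to 1.08 times the median library of the Th17 table and within 0.825 to 1.19 times that of the iTreg table. Only ratios near the depth of the Th0 library M22_1 were searched, so a depth far from it could not have been found. Each ratio rested on 19 to 60 genes. All 8 T cell markers examined were listed, while none of 5 NK cell markers, only Cd79a of 5 B cell markers (3.84 FPKM at most), and only Itgam of 9 myeloid or dendritic cell markers (0.628 FPKM at most, Th17 table alone) were listed. Of the CD8 T cell markers Cd8a was not listed, while Cd8b1 was at 2.52 to 6.60 FPKM in Th0, 3.22 to 5.89 FPKM in Th17, and 2.19 to 5.52 FPKM in iTreg libraries. Genes not listed had been under the authors' filter on low counts. Libraries are named by their column headings, whose beginnings M22, M29, M42, and M43 recur in each group. Neither the labels nor the methods explain these beginnings, but libraries that share one deviated together from their group means over the genes tested. A fit with the heading as a block, added after the data were seen, is therefore given beside the results whose call it changes. The M42 library of each group had the lowest sum of T cell markers, with 1110 FPKM in Th0, 981 FPKM in Th17, and 1217 FPKM in iTreg cells, where the other libraries had 1306.5 to 2200 FPKM. Foxp3, the master regulator of regulatory T cells, was at 62.0 to 91.7 FPKM in the iTreg libraries, and the Th17 library M43_5 carried 42.5 FPKM of it, where the other three Th17 libraries carried 0.499 to 4.50 FPKM. Values of the genes and family shares that rest on these libraries are also given without them.

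In Th17 cells 5 of the 9 genes were down-regulated compared to Th0 cells, namely Egr3, Nr4a1, Nr4a3, Nab2, and Cd69, and none was up-regulated. In iTreg cells 4 were down-regulated, namely Egr1, Egr3, Nab2, and Cd69, and none was up-regulated. No gene of the 9 was higher at an unadjusted limma p under 0.05 in either comparison. With the heading as a block 7 of the 9 were down-regulated in each comparison and none was up-regulated, and only Nr4a3 in iTreg cells was higher at an unadjusted limma p under 0.05 (0.027). Of all 10269 genes tested in the Th17 comparison 19.3% were differentially expressed and 8.69% were down-regulated, and of the 10208 genes tested in the iTreg comparison the shares were 16.6% and 8.21%. With the block 37.8% of the genes were differentially expressed and 18.6% down-regulated in Th17 cells, and 40.9% and 20% in iTreg cells. The median log2 fold change of the 9 genes was -0.93 in Th17 cells and -0.77 in iTreg cells, beside medians of -0.0007 and 0.0114 over all genes tested. A gene was called differentially expressed at an adjusted p under 0.05 in limma, fitted to log2(FPKM + 1) and adjusted by Benjamini-Hochberg over all genes tested, and fold changes are on that scale, which understates changes of genes at low FPKM. All 9 genes passed the filter of more than 1 FPKM in at least 4 of 8 libraries, and each was over 1 FPKM in every library. In bulk samples, fewer cells that express a gene and less RNA of it per cell cannot be told apart. The sequencing libraries of the polarized and Th0 cells did not overlap, with lower values in the polarized cells, for 5 of the 9 genes in Th17 cells, where 10.6% of all genes tested did so, and for 4 of the 9 in iTreg cells, where 11% did.

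**Figure D1:**
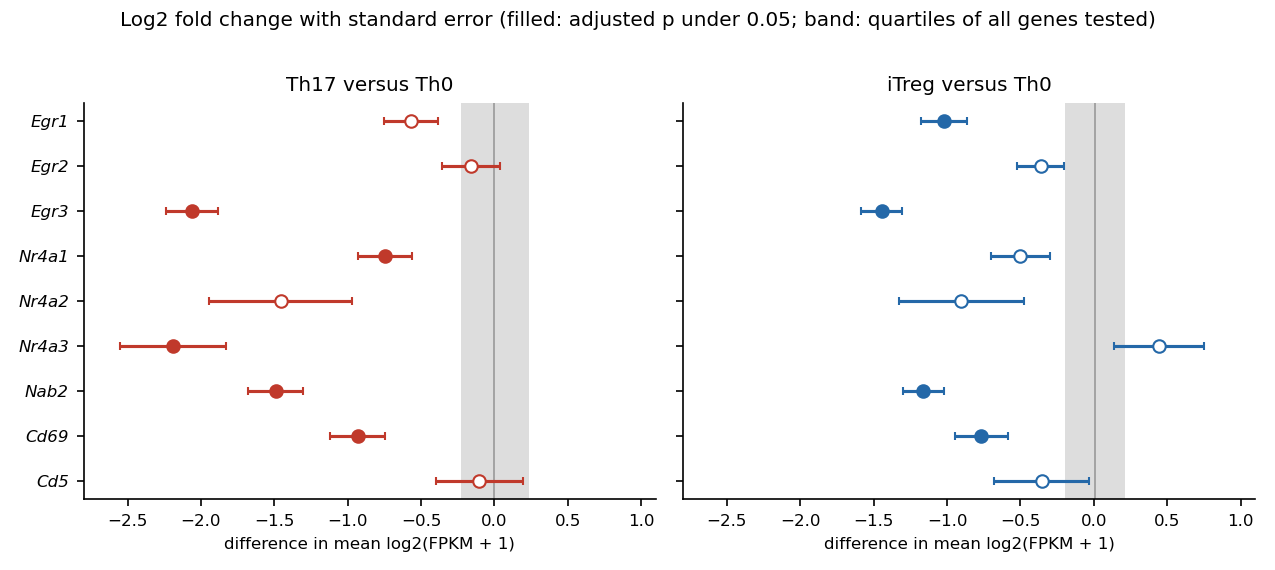
Log2 fold change of each of the 9 genes with its standard error (horizontal axis, difference in mean log2(FPKM + 1), 4 polarized against 4 Th0 libraries), for Th17 cells on the left and iTreg cells on the right. Filled points passed an adjusted p of 0.05 in limma, the grey band spans the quartiles of all genes tested and the grey line is their median. Nr4a3 is the lowest point in Th17 cells, at -2.19, and the single point above 0 in iTreg cells, at 0.45, where it did not pass.

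Among the EGR transcription factors, Egr3 differed most from Th0 in both polarized cell types, Egr1 passed the test in iTreg but not in Th17 cells, and Egr2 passed in neither. With the block Egr1 also passed in Th17 cells and Egr2 in iTreg cells. Whether a gene differed between the comparisons was not tested. Egr3 (chromosome 14, 70077203 to 70082614, plus strand of GRCm38 in the GENCODE annotation) was at 52.5, 59.0, 80.5, and 62.1 FPKM in the Th0 libraries and at 13.6, 15.3, 11.0, and 17.9 FPKM in the Th17 libraries, each in the order M22, M29, M42, and M43. The M42 library was the highest of the Th0 and the lowest of the Th17 libraries, and the groups lay far apart. Egr3 fell from 63.5 ± 12.004 to 14.5 ± 2.89 FPKM (SD, n = 4 each), a log2 fold change of -2.06 (SE, the standard error, 0.17, limma adjusted p = 1.0e-04). In the iTreg libraries it was at 19.1, 22.8, 24.0, and 22.9 FPKM, below the Th0 values of that table, which ran from 51.8 to 79.5 FPKM. The iTreg libraries lay close together and above all 4 Th17 values of the other table, a difference that was not tested. Its log2 fold change in iTreg cells was -1.45 (SE 0.14, limma adjusted p = 3.0e-04). Among all genes listed, the mean Egr3 level stood at the 89.7th percentile in Th0, the 53.4th in Th17, and the 66.9th in iTreg cells.

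Egr1, the founding member of the family (chromosome 18, 34859823 to 34864984, plus strand), was at 81.8, 116, 123, and 92.0 FPKM in Th0 and 72.6, 86.4, 66.6, and 52.2 FPKM in Th17 libraries. The groups overlapped at the M22 Th0 and the M29 Th17 library. Its log2 fold change in Th17 cells was -0.57 (SE 0.19), which did not pass (limma adjusted p = 0.065), and it passed when the Th17 library M29_5 was left out (limma adjusted p = 0.047) and with the heading as a block (SE 0.13, limma adjusted p = 0.017), with the Th17 library lower under all 4 headings. In iTreg cells Egr1 was at 43.9, 58.4, 51.2, and 44.1 FPKM, and its Th0 values in that table were 80.9, 115, 121, and 90.9 FPKM. Every iTreg library was under every Th0 library. Egr1 fell from 101.9 ± 19.1 to 49.4 ± 6.91 FPKM (SD, n = 4 each), with a log2 fold change of -1.02 (SE 0.16, limma adjusted p = 0.0030).

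Egr2, which is tied to T cell anergy and to the restraint of activated T cells (chromosome 10, 67535475 to 67542188, plus strand), was at 57.0, 72.6, 79.0, and 61.7 FPKM in Th0 and 55.1, 81.3, 66.0, and 43.4 FPKM in Th17 libraries. The Th17 values lay around the Th0 values on both sides, and the log2 fold change was -0.16 (SE 0.20, limma adjusted p = 0.62). In iTreg cells it was at 39.5, 53.3, 61.3, and 54.2 FPKM, against 56.4, 71.99, 78.1, and 61.0 FPKM in Th0. The M42 iTreg library lay among the Th0 values. Its log2 fold change of -0.36 (SE 0.16) did not pass (limma adjusted p = 0.17), while it passed with the heading as a block (SE 0.08, limma adjusted p = 0.011).

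**Figure D2:**
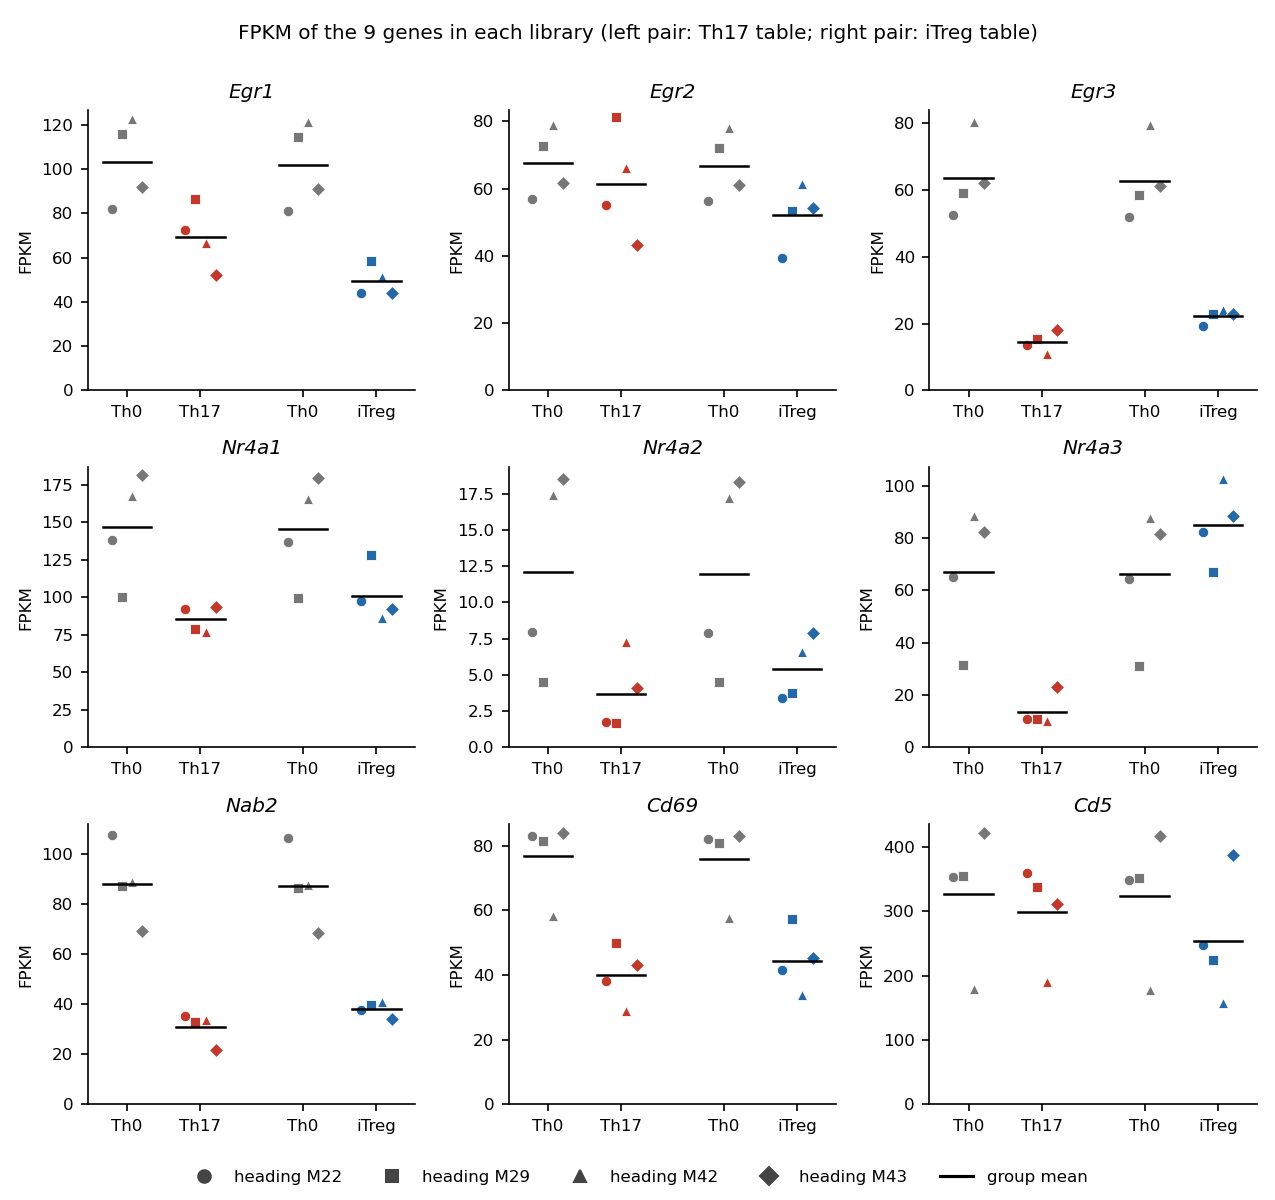
FPKM of each of the 9 genes (vertical axis, starting at 0) in each library, with Th0 and Th17 of the Th17 table on the left of a panel and Th0 and iTreg of the iTreg table on the right. Symbols give the beginning of the column heading and black lines the group means. Th0 points of the pairs are the same libraries on slightly different scales, and Nr4a3 at 10.0 to 23.2 FPKM in Th17 libraries against 67.2 to 102.5 FPKM in iTreg libraries can be set side by side but was not tested.

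Among the NR4A receptors, Nr4a3 and Nr4a1 were down-regulated in Th17 cells, Nr4a2 did not pass the test there, and none of them passed it in iTreg cells, where only Nr4a1 had an unadjusted limma p under 0.05 (0.035). With the heading as a block Nr4a2 passed in both. Nr4a3 (chromosome 4, 48045153 to 48086447, plus strand) was at 65.0, 31.5, 88.5, and 82.4 FPKM in Th0 and 10.7, 10.8, 10.0, and 23.2 FPKM in Th17 libraries. The Th0 library M29_1 was the lowest of its group and still above the highest Th17 library, M43_5. Nr4a3 fell from 66.8 ± 25.6 to 13.7 ± 6.37 FPKM (SD, n = 4 each), a log2 fold change of -2.19 (SE 0.36, limma adjusted p = 0.0034). M43_5 is also the Th17 library with the high Foxp3 level, and without it the log2 fold change was -2.46 (limma adjusted p = 0.0023), while the part of that Foxp3 level in the Nr4a3 value was not tested. In iTreg libraries Nr4a3 was at 82.3, 67.2, 103, and 88.5 FPKM, against 64.2, 31.2, 87.5, and 81.4 FPKM in Th0. The groups overlapped, with the lowest value in Th0 and the highest in iTreg cells. A log2 fold change of 0.45 (SE 0.30) did not pass (limma adjusted p = 0.38), and it ran from 0.13 to 0.61 when each library was left out in turn. The iTreg library was the higher under each of the 4 headings, by 1.09 to 2.15 times, and with the block the difference still did not pass (SE 0.16, limma adjusted p = 0.062).

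Nr4a1 encodes Nur77, which is widely used to report receptor signalling (chromosome 15, 101254269 to 101274795, plus strand). It was at 138, 100.2, 167, and 181 FPKM in Th0 and 92.2, 78.8, 76.7, and 93.5 FPKM in Th17 libraries. The Th17 values were close together and all under the lowest Th0 library, M29_1. Nr4a1 fell by 0.75 on the log2 scale (SE 0.19, limma adjusted p = 0.023). The call was lost without the Th0 library M22_1, M42_1, or M43_1 or the Th17 library M29_5, with limma adjusted p from 0.053 to 0.065, and without both M42 libraries (limma adjusted p = 0.099). In iTreg libraries Nr4a1 was at 97.5, 128, 86.1, and 92.4 FPKM, against 136, 99.4, 165, and 179 FPKM in Th0. The M29 library was the highest of the iTreg and the lowest of the Th0 libraries, so that the groups overlapped. The log2 fold change of -0.50 (SE 0.20) did not pass (limma adjusted p = 0.13), but it passed without the Th0 library M29_1 (-0.67, limma adjusted p = 0.032).

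Nr4a2 (chromosome 2, 57106830 to 57124003, minus strand) was the least abundant of the 9 genes in every group. It was at 7.98, 4.53, 17.4, and 18.5 FPKM in Th0, 1.76, 1.71, 7.26, and 4.08 FPKM in Th17, and 3.39, 3.72, 6.60, and 7.91 FPKM in iTreg libraries. The M42 and M43 libraries were the highest in each group, and both polarized groups overlapped with Th0. The log2 fold changes were -1.46 (SE 0.49, limma adjusted p = 0.070) in Th17 and -0.90 (SE 0.42, limma adjusted p = 0.19) in iTreg cells. The Th17 difference passed without the Th0 library M29_1 (limma adjusted p = 0.028) or the Th17 library M42_5 (limma adjusted p = 0.029). Within a heading the Th17 library was at 0.22 to 0.42 times its Th0 library, and with the heading as a block Nr4a2 was down-regulated in Th17 (SE 0.16, limma adjusted p = 9.9e-04) and in iTreg cells (SE 0.17, limma adjusted p = 0.0062).

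The make-up of the families is a ratio within a library and does not depend on how a table was scaled. In Th0 cells Egr1 gave 43.9% ± 1.94, Egr2 28.95% ± 0.801, and Egr3 27.1% ± 2.26 of the summed FPKM of these genes (SD, n = 4). The Egr3 share was 10.4% ± 3.71 in Th17 and 18.0% ± 0.921 in iTreg cells (SD, n = 4 each), and the Egr2 share was 41.9% ± 3.88 in Th17 and 41.9% ± 3.35 in iTreg cells. In both polarized cell types the Egr3 share was lower and the Egr2 share higher than in all Th0 libraries (exact permutation test, two-sided, p = 0.0286 in each case, the smallest that 4 libraries against 4 allow, adjusted p = 0.0457 over 16 tests on both families). Shares of a family sum to 100%, so these tests are not independent of each other. The Egr1 share did not pass in Th17 cells (47.7%, exact permutation p = 0.0857) or in iTreg cells (40.0%, exact permutation p = 0.229). These tests take no account of the heading. The Egr1 share was higher in Th17 than in Th0 cells under each heading, which was not tested. In iTreg cells it was slightly higher under M22 and lower under M29, M42, and M43. The log2 ratio of Egr1 to Egr2 fell by 0.41 in Th17 and by 0.67 in iTreg cells (exact permutation p = 0.0286 each, adjusted p = 0.0381 over 4 such ratios). Without the Th17 library M43_5, which set the top of the Th17 range, the Egr3 share differed from Th0 by -18.57 percentage points where it was -16.76 with all libraries, and without both M42 libraries the differences were -15.41 in Th17 and -8.52 in iTreg cells. The summed FPKM of the EGR genes was 191 to 282 in Th0, 113 to 183 in Th17, and 103 to 136 in iTreg libraries.

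In the NR4A family the Nr4a3 share went opposite ways in the polarized cell types. It was 28.9% ± 4.06 in Th0, 13.0% ± 4.21 in Th17, and 44.5% ± 7.84 in iTreg cells (SD, n = 4 each), with ranges of 23.1% to 32.4%, 10.2% to 19.2%, and 33.8% to 52.5%. Each polarized group lay wholly apart from Th0 (exact permutation test, two-sided, p = 0.0286 in each case, adjusted p = 0.0457 over 16 tests). Nr4a1 made up 66.1% ± 5.26 in Th0 and 83.4% ± 4.83 in Th17 cells (SD, n = 4 each, exact permutation p = 0.0286), and 52.6% ± 8.62 in iTreg cells, where it overlapped with Th0 (exact permutation p = 0.0857). The log2 ratio of Nr4a1 to Nr4a3 differed from Th0 by 1.53 in Th17 cells (exact permutation p = 0.0286, adjusted p = 0.0381 over 4 ratios), but in iTreg cells a difference of -0.96 did not pass and the groups overlapped (exact permutation p = 0.0571). These tests take no account of the heading. From Th0 to iTreg the Nr4a1 share went from 65.4% to 53.2% under M22 and from 73.6% to 64.3% under M29. It went from 61.2% to 44.1% under M42 and from 64.3% to 48.9% under M43. The Nr4a3 share was higher in iTreg cells under each heading, so the ratio was lower under each, which was not tested. The Nr4a3 share differed by -15.88 percentage points in Th17 cells with all libraries and by -17.96 without M43_5, and without both M42 libraries by -13.94 in Th17 and 14.18 in iTreg cells. Nr4a2 held 5.01% in Th0, 3.66% in Th17, and 2.82% in iTreg cells, without a difference that passed. Its share was below that of Th0 under each heading in iTreg cells, and under each but M42 in Th17 cells. The summed FPKM of the NR4A genes was 136 to 282 in Th0, 91.3 to 121 in Th17, and 183 to 199 in iTreg libraries.

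**Figure D3:**
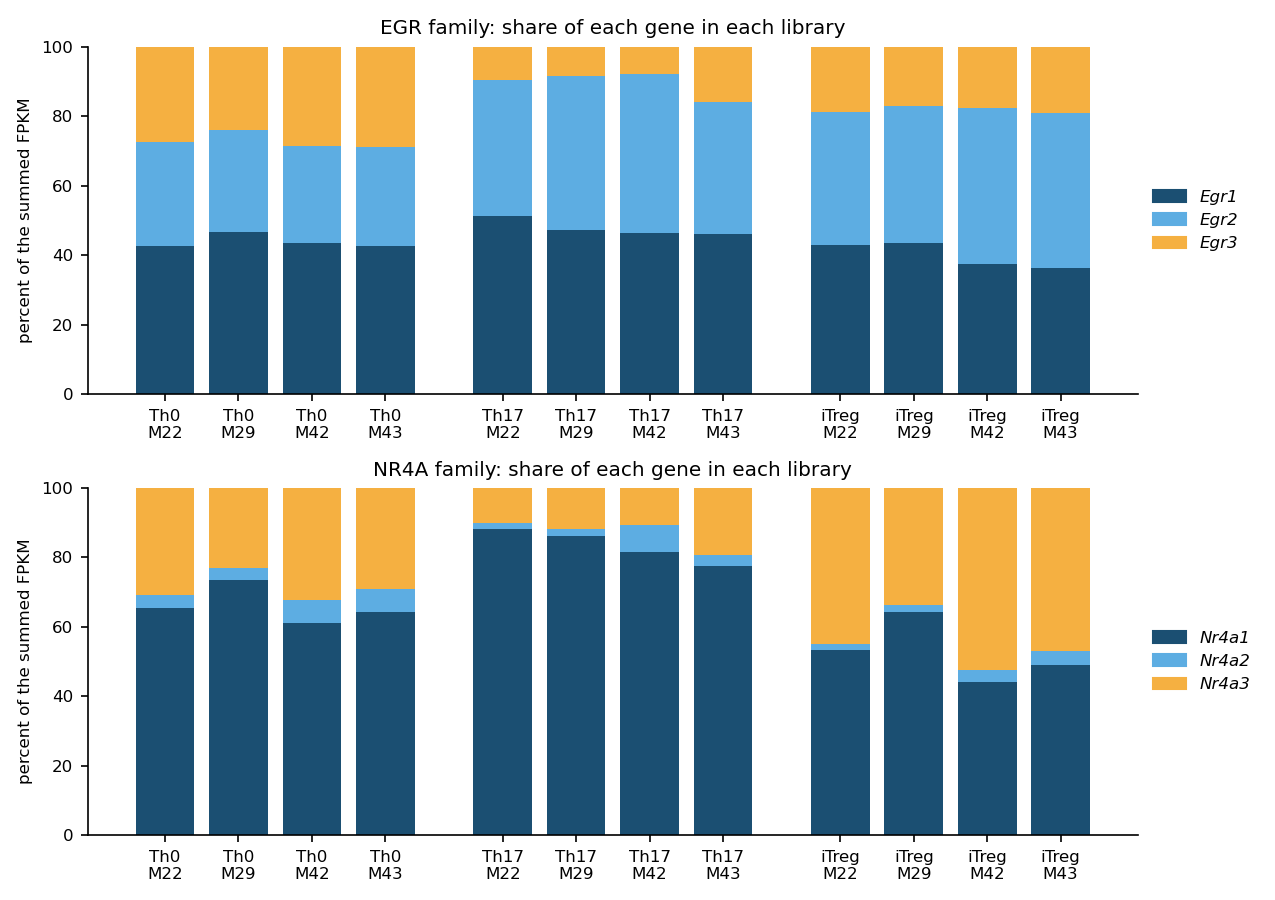
Share of each gene in the summed FPKM of its family (vertical axis, percent) in each of the 12 libraries, for EGR genes above and NR4A genes below, with Th0 shares from the Th17 table. The top segment of the EGR bars (Egr3) is 23.9% to 28.8% in Th0, 7.69% to 15.8% in Th17, and 16.9% to 18.9% in iTreg libraries, and the top segment of the NR4A bars (Nr4a3) shrinks in Th17 and widens in iTreg libraries.

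Nab2, the corepressor of EGR factors (chromosome 10, 127660918 to 127668568, minus strand), was down-regulated in both cell types. It was at 108, 86.9, 88.6, and 69.2 FPKM in Th0 and 35.3, 32.9, 33.6, and 21.7 FPKM in Th17 libraries. The M43 library was the lowest in both groups, and the groups were well apart. Nab2 fell from 88.1 ± 15.7 to 30.9 ± 6.22 FPKM (SD, n = 4 each), with a log2 fold change of -1.49 (SE 0.19, limma adjusted p = 7.1e-04). In iTreg libraries it was at 37.6, 39.6, 40.9, and 33.9 FPKM, against 68.3 to 106 FPKM in Th0, with a log2 fold change of -1.16 (SE 0.14, limma adjusted p = 8.1e-04). In the annotation 42.2% of the exonic bases of Nab2 are shared with genes on the opposite strand, mostly Gm16229 (35.7%), and reads had been counted without strand in a mode that sets aside reads overlapping more than 1 annotated gene. The sources used here do not name the annotation used for counting, so whether reads of the shared bases entered the Nab2 value is not known. None of the other 8 genes shared exonic bases with another gene.

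Cd69 (chromosome 6, 129267325 to 129275436, minus strand) was down-regulated in both cell types. It was at 83.0, 81.4, 58.3, and 84.0 FPKM in Th0, 38.1, 49.98, 29.005, and 43.1 FPKM in Th17, and 41.6, 57.3, 33.8, and 45.2 FPKM in iTreg libraries. The M42 library was the lowest in every group, and the highest iTreg library, M29_4, was just under the lowest Th0 library of its table, M42_1 at 57.6 FPKM. The log2 fold change was -0.93 in Th17 (SE 0.19, limma adjusted p = 0.0088) and -0.77 in iTreg cells (SE 0.18, limma adjusted p = 0.021). Without both M42 libraries, which also had the lowest T cell marker sums, the values were -0.92 (limma adjusted p = 0.0046) and -0.77 (limma adjusted p = 0.018). The iTreg call was lost without the Th0 library M22_1, M29_1, or M43_1 or the iTreg library M22_4, with limma adjusted p from 0.050 to 0.063.

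Cd5 (chromosome 19, 10717116 to 10739002, minus strand) was the most abundant of the 9 genes in every group and passed the test in neither comparison without the block. It was at 353, 355, 180, and 422 FPKM in Th0 and 360, 338, 189, and 310 FPKM in Th17 libraries, and at 248, 224, 158, and 387 FPKM in iTreg libraries, whose Th0 values in that table were 348, 352, 177, and 417 FPKM. The M42 libraries were again the lowest of each group, and the groups overlapped. Its log2 fold change was -0.10 in Th17 (SE 0.29, limma adjusted p = 0.85) and -0.35 in iTreg cells (SE 0.32, limma adjusted p = 0.53). With the heading as a block the iTreg difference passed (SE 0.11, limma adjusted p = 0.036). Without both M42 libraries it was -0.16 (limma adjusted p = 0.45) and -0.41 (limma adjusted p = 0.29). The part of the low T cell marker sums in the low M42 values of Cd5 and Cd69 was not tested.

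Set in order of their mean level per length, the genes ran Cd5, Nr4a1, Egr1, Nab2, Cd69, Egr2, Nr4a3, Egr3, and Nr4a2 in Th0 cells, and only Nr4a2 stood apart from its neighbour, with its highest library at 18.5 FPKM under the lowest Egr3 library at 52.5 FPKM. In Th17 cells the order was Cd5, Nr4a1, Egr1, Egr2, Cd69, Nab2, Egr3, Nr4a3, and Nr4a2. The libraries of neighbours overlapped there except between Cd5 and Nr4a1, between Nab2 and Egr3, and between Nr4a3 and Nr4a2. In iTreg cells the order was Cd5, Nr4a1, Nr4a3, Egr2, Egr1, Cd69, Nab2, Egr3, and Nr4a2. Neighbours overlapped there except between Cd5 and Nr4a1, between Nr4a3 and Egr2, between Nab2 and Egr3, and between Egr3 and Nr4a2.

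The other genes of these pathways were examined in 7 lists with 109 genes in all. Of 14 tested genes tied to EGR factors in T cell anergy, 6 were down-regulated in Th17 and 7 in iTreg cells and none was up-regulated in either, with median log2 fold changes of -0.93 and -0.83, where 8.69% and 8.21% of all genes tested were down-regulated. No gene of this list was higher at an unadjusted limma p under 0.05. With the heading as a block 8 were down-regulated and Lag3 was up-regulated in Th17 cells (1.30 on the log2 scale, limma adjusted p = 3.6e-04), and 12 were down-regulated in iTreg cells. Of all genes tested 18.6% in Th17 and 20% in iTreg cells were down-regulated with the block. Nrn1, which encodes neuritin, ranged from 52.3 to 422 FPKM in Th0 and from 1.15 to 4.73 FPKM in Th17 libraries, with a log2 fold change of -5.61 (SE 0.61, limma adjusted p = 3.3e-04). In iTreg cells its log2 fold change was -4.26 (SE 0.63, limma adjusted p = 0.0025). Nrgn, which encodes the calmodulin-binding protein neurogranin, had log2 fold changes of -4.89 in Th17 (SE 0.41, limma adjusted p = 9.7e-05) and -2.90 in iTreg cells (SE 0.42, limma adjusted p = 0.0022). Tnfrsf9, the costimulatory receptor 4-1BB, fell by 2.60 on the log2 scale in Th17 cells (limma adjusted p = 2.6e-04). In iTreg cells Tnfrsf9 passed only with the block (log2 fold change -0.88, limma adjusted p = 0.0011). Dgkz, a kinase that removes diacylglycerol and so dampens receptor signalling, and Ikzf1 were down-regulated in both cell types, and Cblb, a ubiquitin ligase that restrains receptor signalling, and Dgka in iTreg cells. In Th17 cells Dgka had a log2 fold change of -0.70 and passed only with the block (limma adjusted p = 0.031). The iTreg calls of Dgka and Dgkz were lost under 5 and 7 of 16 alternatives, limma adjusted p up to 0.077 and 0.085.

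**Figure D4:**
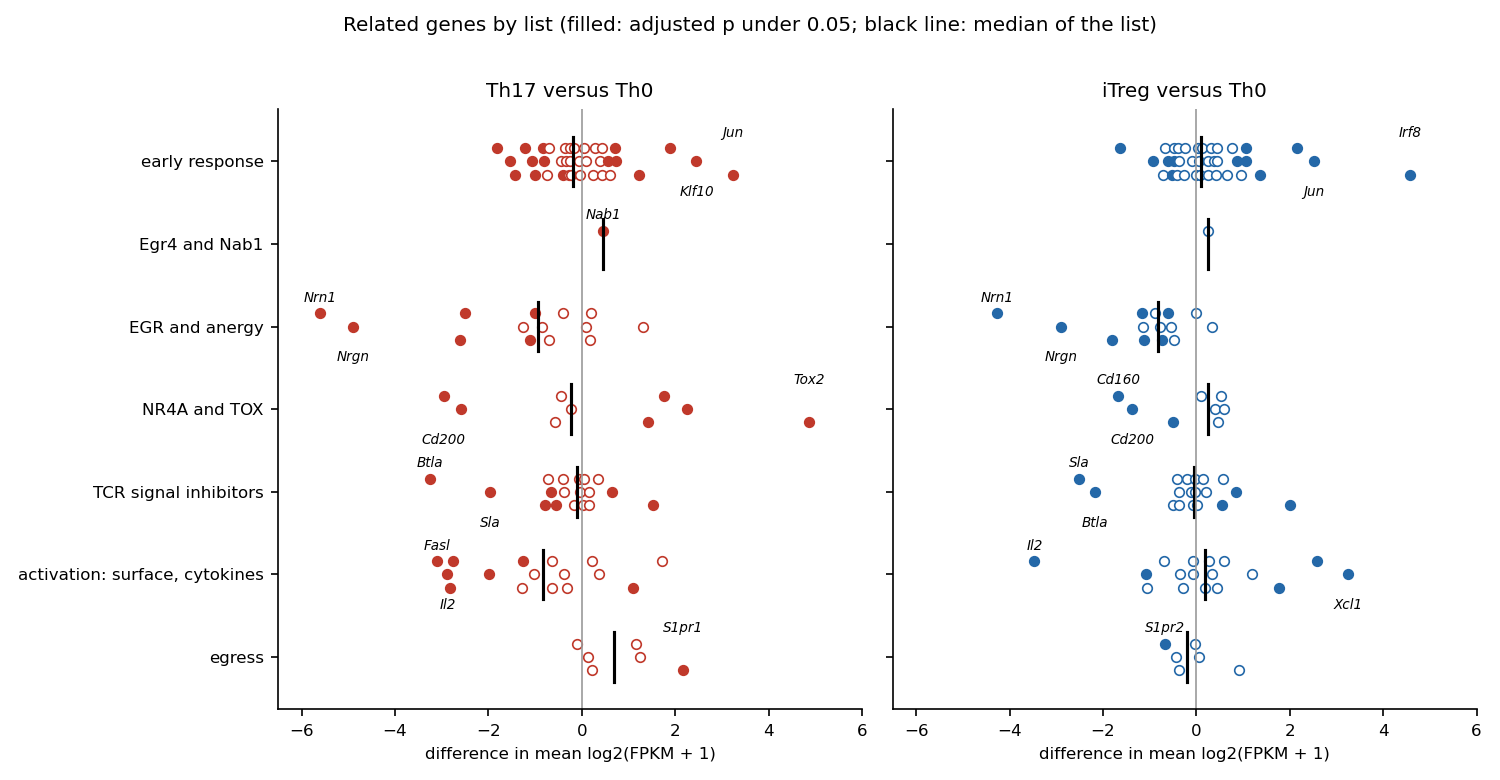
Log2 fold change (horizontal axis, difference in mean log2(FPKM + 1)) of every tested gene of the 7 lists in Th17 (left) and iTreg cells (right). Filled points passed an adjusted p of 0.05 in limma, black lines are list medians, and up to 2 called genes per list are named. In the list of EGR and anergy genes all filled points lie left of 0 in both panels, while filled points of the early response list lie on both sides.

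Of 36 tested early response genes, 7 were up-regulated and 9 down-regulated in Th17 cells (median log2 fold change -0.20), and 7 were up-regulated and 5 down-regulated in iTreg cells (median 0.10). Over all genes tested 10.6% were up-regulated and 8.69% down-regulated in Th17 cells, and 8.36% and 8.21% in iTreg cells. With the heading as a block, where 19.2% and 18.6% of all genes were called in Th17 and 20.9% and 20% in iTreg cells, the list counts were 9 and 14 in Th17 and 13 and 10 in iTreg cells. Jun, a subunit of the AP-1 factor, rose in both cell types, with log2 fold changes of 3.23 (SE 0.31, limma adjusted p = 1.9e-04) and 2.51 (SE 0.32, limma adjusted p = 0.0012). Klf10, which is induced by TGFβ, rose by 2.45 and 2.15 on the same scale (limma adjusted p = 1.6e-05 and 3.9e-05). Fosl2, an AP-1 subunit, rose in Th17 cells by 1.89 (limma adjusted p = 4.3e-04), and Irf8, an interferon regulatory factor, rose in iTreg cells by 4.57 (limma adjusted p = 4.5e-04). In iTreg cells Fosl2 passed only with the block (log2 fold change 0.37, limma adjusted p = 0.0098). Among other AP-1 subunits, Fos fell in iTreg cells by 1.63 (limma adjusted p = 0.0027) and did not pass in Th17 cells. Jund fell by 0.83 in Th17 and 0.53 in iTreg cells (limma adjusted p = 0.0078 and 0.033). Junb rose in Th17 cells by 0.72 (limma adjusted p = 0.035). The iTreg call of Jund and the Th17 call of Junb were lost under 8 and 6 of 16 alternatives, with limma adjusted p up to 0.16 and 0.099. Dusp5, a phosphatase of nuclear ERK, fell in Th17 cells by 1.06 (limma adjusted p = 0.0046) and rose in iTreg cells by 0.87 (limma adjusted p = 4.9e-04), and it was named after its values were seen.

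The EGR partners examined outside the set were Egr4 and Nab1. Egr4 did not pass the filter and was not tested, with 0.485 to 2.52 FPKM in Th0, 0.272 to 0.582 FPKM in Th17, and 0.174 to 0.337 FPKM in iTreg libraries. Nab1, the second NAB corepressor, was at 7.43 to 8.29 FPKM in Th0 and 8.55 to 13.4 FPKM in Th17 libraries. Its log2 fold change in Th17 cells was 0.46 (SE 0.14, limma adjusted p = 0.049), opposite in sign to that of Nab2, but the call was lost under 11 of 16 alternatives with limma adjusted p up to 0.12. In iTreg cells it was 0.24 (limma adjusted p = 0.16, and 0.048 with the heading as a block).

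Among genes tied to NR4A and TOX factors in chronically stimulated T cells, 4 of 9 tested were up-regulated and 2 down-regulated in Th17 cells (median log2 fold change -0.24), and none of 8 was up-regulated and 3 were down-regulated in iTreg cells (median 0.24), where only Id2 and Pdcd1 were higher at an unadjusted limma p under 0.05 (0.021 and 0.027). These calls stand beside 10.6% of all genes up-regulated and 8.69% down-regulated in Th17 cells and 8.36% and 8.21% in iTreg cells. With the heading as a block 4 and 3 were called in Th17 and 3 and 3 in iTreg cells, where Pdcd1, Ctla4, and Id2 were up-regulated with limma adjusted p of 0.0014, 0.017, and 0.032. Over all genes tested the block gave 19.2% up-regulated and 18.6% down-regulated in Th17 cells, and 20.9% and 20% in iTreg cells. Tox2, a relative of the transcription factor TOX, rose in Th17 cells from 0.742 ± 0.517 to 52.0 ± 21.2 FPKM (SD, n = 4 each, log2 fold change 4.87, limma adjusted p = 4.1e-05), while in iTreg libraries it was at 0.534 to 1.21 FPKM and was not tested. Cd200, an inhibitory ligand, fell in Th17 cells by 2.95 on the log2 scale (limma adjusted p = 2.3e-04) and in iTreg cells by 1.38 (limma adjusted p = 9.3e-04). Cd160, a receptor of the immunoglobulin family, fell by 2.59 (limma adjusted p = 0.0012) and 1.67 (limma adjusted p = 0.025), and Tox fell in iTreg cells by 0.50 (limma adjusted p = 0.038). In Th17 cells Tox passed only with the block (log2 fold change -0.44, limma adjusted p = 0.014). The iTreg calls of Cd160 and Tox were lost under 6 and 8 of 16 alternatives, with limma adjusted p up to 0.089 and 0.11.

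Of 18 inhibitors of proximal receptor signalling, the group to which CD5 belongs, 2 were up-regulated and 5 down-regulated in Th17 cells (median log2 fold change -0.11), and 3 and 2 in iTreg cells (median -0.05). Calls in either direction made up 19.3% of all genes tested in Th17 and 16.6% in iTreg cells. With the block the list counts were 2 up-regulated and 8 down-regulated in Th17 and 4 and 6 in iTreg cells. Calls in either direction then made up 37.8% of all genes tested in Th17 and 40.9% in iTreg cells. Btla, an inhibitory receptor, fell in Th17 cells by 3.25 on the log2 scale (limma adjusted p = 4.1e-05) and in iTreg cells by 2.17 (limma adjusted p = 3.9e-04). Sla, an adaptor that lowers receptor levels, fell by 1.96 (limma adjusted p = 1.7e-04) and 2.51 (limma adjusted p = 3.5e-04). Ptprj, a receptor-type phosphatase, rose by 1.53 (limma adjusted p = 0.016) and 1.99 (limma adjusted p = 0.0024), and the Th17 call was lost without both M42 libraries (limma adjusted p = 0.059).

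Of 16 tested surface molecules and cytokines of activation, the group to which CD69 belongs, 1 was up-regulated and 6 were down-regulated in Th17 cells (median log2 fold change -0.83), and of 17 tested 3 were up-regulated and 2 down-regulated in iTreg cells (median 0.19), where 8.69% and 8.21% of all genes tested were down-regulated and 10.6% and 8.36% up-regulated. With the block 2 were up-regulated and 10 down-regulated in Th17 and 6 and 5 in iTreg cells. Among all genes tested 19.2% were then up-regulated and 18.6% down-regulated in Th17 cells, and 20.9% and 20% in iTreg cells. Il2, the T cell growth factor, fell by 2.88 on the log2 scale in Th17 cells (limma adjusted p = 3.0e-04) and fell by 3.47 in iTreg cells (limma adjusted p = 3.5e-04). Fasl, the ligand of the death receptor Fas, fell in Th17 cells by 3.10 (limma adjusted p = 4.9e-05), and Cd40lg, which gives help to B cells, fell by 2.81 (limma adjusted p = 3.2e-04). In iTreg cells Fasl was also down-regulated (log2 fold change -1.08, limma adjusted p = 0.022), a call that 5 of 16 alternatives lost with limma adjusted p up to 0.059. Cd40lg passed in iTreg cells only with the block (log2 fold change -1.05, limma adjusted p = 6.5e-04). Lta, which encodes lymphotoxin alpha, rose in iTreg cells by 2.58 (limma adjusted p = 9.4e-04), and the chemokine gene Xcl1 rose by 3.25 (limma adjusted p = 0.034), which 7 of 16 alternatives lost with limma adjusted p up to 0.12. In Th17 cells Xcl1 passed only with the block (log2 fold change 1.71, limma adjusted p = 0.0075).

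Of 6 genes of lymphocyte egress and homing, listed because CD69 binds S1PR1, 1 was up-regulated in Th17 and 1 down-regulated in iTreg cells, with medians of 0.69 and -0.21, a share close to the 19.3% and 16.6% of all genes that were called. With the block S1pr1 and Klf2 were among the genes up-regulated in Th17 cells, and S1pr1 was up-regulated and S1pr2 and S1pr4 down-regulated in iTreg cells. Calls with the block made up 37.8% of all genes tested in Th17 and 40.9% in iTreg cells. S1pr1 was at 7.71, 12.6, 3.25, and 7.04 FPKM in Th0 and 38.4, 47.2, 10.6, and 75.4 FPKM in Th17 libraries. The M42 libraries were the lowest of both groups, and the M42 Th17 library lay among the Th0 values. S1pr1 rose by 2.17 on the log2 scale (SE 0.56, limma adjusted p = 0.028), and 6 of 16 alternatives, all leaving out a library, lost the call with limma adjusted p up to 0.073. S1pr2 fell in iTreg cells by 0.68 (limma adjusted p = 0.033), which 6 of 16 alternatives lost with limma adjusted p up to 0.087.

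The genes most like the EGR and NR4A genes were sought over the 8 libraries of a table, by Pearson correlation of log2(FPKM + 1) with the mean z-score of the 6 genes of both families. In the Th17 table these were Mcu, Cap1, and Tmem38b, each with r = 0.98, and in the iTreg table Tubgcp2 (r = 0.99), Rest (r = 0.98), and Pfkfb3 (r = 0.98). The 8 libraries share their groups, so such values can follow the difference between the groups and are a description. Without the block Mcu, Cap1, and Tmem38b were down-regulated in Th17 cells (limma adjusted p = 0.0012, 0.0025, and 0.0011). Tubgcp2, Rest, and Pfkfb3 did not pass in iTreg cells, with log2 fold changes of -0.11, -0.29, and -0.33 (limma adjusted p = 0.41, 0.066, and 0.15). Of the 6 EGR and NR4A genes themselves, the correlations ran from 0.48 (Egr2) to 0.94 (Egr3) in the Th17 table. Each of these genes is itself part of the mean z-score, so its correlation is in part set in advance. In the iTreg table Nr4a3 was at 0.07, while the other five lay between 0.76 (Egr2) and 0.91 (Nr4a2).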

How the data were processed

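RNA from 4 separate cultures each of Th0, Th17, and iTreg cells had been sequenced as paired reads of 100 nt. The authors mapped the reads with TopHat2 2.0.14 to mm10 (GRCm38), counted them on exons with HTSeq in its union mode without strand, tested the counts in edgeR with a pair-wise design, removed genes without more than 1 CPM in at least 4 samples, and deposited 2 tables with FPKM values of 8 libraries each. The step from counts to FPKM is not stated. Each Th0 library differs between the tables by a constant factor of 1.009 to 1.012, so tests were made within a table only. The tables also hold the authors' log2 fold changes, average log CPM, likelihood ratios, p-values, and FDR, which were not used. Counting error per gene is unknown, since depth is known only in relative terms.

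Groups came from the labels. Columns show the group of a library but no experiment number, so the main fit has no block. Column headings share their beginnings across groups. In each comparison all 4 libraries with the same beginning correlated in their deviations from the group means (0.45 to 0.78 for Th17, 0.66 to 0.77 for iTreg), each more than with any other heading, and a fit with the heading as a block was added. The filter kept genes over 1 FPKM in 4 or more of 8 libraries. For these, limma 3.58.1 (R 4.3.3, neither trend nor robust) was fitted to log2(FPKM + 1), and p-values were adjusted by Benjamini-Hochberg over all genes tested. The unpaired test takes differences between headings as spread. Shares within families were compared with two-sided exact permutation tests (70 arrangements) in Python 3.11.15 with scipy 1.17.1. These permutation tests take no account of the heading. The fit without the block was run on simulated data whose libraries varied independently. Such data lack the deviations shared by libraries of one heading, so this run cannot show how the unpaired test behaves here. The fit with the block was run on simulated data with an added shift per heading. The 9 genes and the 7 lists of related genes were chosen with earlier results of these data known. From each list the 3 called genes with the largest absolute log2 fold change in a comparison are named, with both genes of the list that holds 2, and the 3 genes most like the EGR and NR4A genes. Other list genes mentioned were chosen after their values were seen. Some list genes are counted in their lists but not reported here. Gene positions are from GENCODE vM21 and promoter sequences from RefSeq GRCm38.p6. Alternatives were another pseudocount, no filter, trend, robust, upper-quartile and quantile scaling, a stricter threshold, each library left out, and, chosen after seeing the data, the block and both M42 libraries left out.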

Additional observations from a re-analysis of the deposited data

Results flagged for a closer look

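Each group of 4 libraries was examined for a library far from the rest for each of the 9 genes, which makes 27 groups, and chance flags about 1 in 20 such groups. Cd69 in Th0 cells was at 58.3 FPKM in the library M42_1, where the other three Th0 libraries were at 81.4 to 84.0 FPKM, and the gap took up 0.902 of the range of the group, above Dixon's critical value for a group of 4. Nr4a3 in Th17 cells was at 23.2 FPKM in the library M43_5, where the other three Th17 libraries were at 10.0 to 10.8 FPKM, a gap of 0.943 of the range. The same library carried 42.5 FPKM of Foxp3, and the Nr4a3 call held without it.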

How the results depend on the processing

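With the column heading as a replicate block, chosen after seeing the data, 3882 genes were called in Th17 and 4170 in iTreg cells, which hold all 1983 and 1691 genes called without it, and 7 of the 9 genes were called in each comparison. It added 5 calls among the 9 genes and lost none of theirs or of the related genes. Leaving out libraries kept the call and direction of 147 of 162 member differences, lost 9 calls, added 4, and reversed 2, and the other alternatives kept 120 of 126 and added those 5. The reversals were all of Cd5 in Th17 cells, a difference that passed under no setting, with 0.0142 under quantile normalization and a range of -0.3673 to 0.1026 when each library was left out. Calls of Egr3, Nr4a3, Nab2, and Cd69 in Th17 and of Egr1, Egr3, and Nab2 in iTreg cells held under every fit at a threshold of 0.05. The number of the 9 genes called ran from 4 to 6 in Th17 and from 3 to 4 in iTreg cells without the block. At an adjusted p under 0.01 in limma, 995 genes were called in Th17 and 778 in iTreg cells, and without both M42 libraries 1042 genes were called in iTreg cells, where fewer samples were fitted. Upper-quartile scaling moved the share of up-regulated genes among calls from 50.4% to 43.3% in iTreg cells and shifted the median of all genes from 0.0114 to -0.0354. Of the list genes called, 32 of 44 in Th17 and 21 of 33 in iTreg cells were called under every alternative to the fit, and none reversed.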
